A study of Mus musculus with 30 samples.

Results

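The difference between 2 responses of mouse blood to x-rays was measured: the irradiation effect in p38DKI mice minus the irradiation effect in p38WT mice. All 4 groups were male C57BL/6J, and blood was taken by cardiac puncture 24 h after 7 Gy or without irradiation. The groups were p38WT unirradiated, p38WT irradiated, p38DKI unirradiated and p38DKI irradiated, with 5 one-colour arrays each. These are 20 of the 30 arrays of the series. The other 10 arrays came from p38DN mice and gave no value to the comparison. They entered the estimate of the spread, the filter on dim probes and a choice of genes described further on. Genotype names are written as the labels give them, and the nature of the altered alleles is not given in the labels. The labels number the arrays within a group as replicates, so the errors below are the spread between those arrays.

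The p38 kinases are stress-activated protein kinases that pass signals from DNA damage, inflammation and other insults to transcription factors, cytokine mRNAs and the cell cycle. Irradiated blood is known for 3 kinds of change: B cells, which are radiosensitive, are lost, p53 target genes are induced, and interferon-stimulated genes can rise. In whole blood, fewer cells of a type and less RNA per cell cannot be told apart.

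Levels are log2 signals from which the array's own 75th percentile was subtracted. A gene was called at a Benjamini-Hochberg adjusted p under 0.05 in a limma fit over 18724 genes. Each difference carries a 95% interval for that gene alone, and a difference was bounded when the whole interval lay within 1 log2 unit of 0, a 2-fold change either way. A gene was preserved when irradiation was called in both genotypes, in 1 direction, and the difference was bounded.

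The motif that many interferon-stimulated promoters carry is shown first, because 34 of the 50 measured interferon list genes rose in both genotypes. The motif GAAANNGAAACT was searched on both strands in the 250 bases before each gene start, in RefSeq sequence of build GRCm38.p6. It was found in 10 of the 38 measured interferon list genes with a promoter sequence (26.3%) and in 69 of 27025 genes in all (0.255%). A match is a description of letters and not a binding site. In the 4 stretches below, capitals mark the match, which reads AGTTTCNNTTTC where it lies on the opposite strand.
Ifit1: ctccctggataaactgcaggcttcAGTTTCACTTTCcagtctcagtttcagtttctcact
Ifit3: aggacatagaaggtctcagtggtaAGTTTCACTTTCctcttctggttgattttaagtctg
Oas1a: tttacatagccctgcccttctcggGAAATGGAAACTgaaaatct
Gbp2: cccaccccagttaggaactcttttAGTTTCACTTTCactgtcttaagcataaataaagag
The Ifit1 stretch is chr19:34640759-34640818 on the plus strand and the Ifit3 stretch is chr19:34583347-34583406 on the plus strand. The Oas1a stretch is chr5:120907526-120907569 on the minus strand and the Gbp2 stretch is chr3:142620578-142620637 on the plus strand.

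A single array stood apart, the second of the p38DKI irradiated group. The lowest correlation between arrays of that group was 0.861, against 0.928 or more within the other 3 groups. Its liver marker score was 10.2 log2 units above the median of the 20 arrays, while no p38WT array was more than 1.19 above it. The first p38DKI unirradiated array was 4.75 above. Markers of blood cells were lowest on the second p38DKI irradiated array: the B cell list averaged -2.72 there, against a group median of -0.79, and the T cell list averaged -0.29 against 1.72. All 10 general blood genes were well above background on all 20 arrays. Without it the median difference of all genes was -0.11, against -0.22 with it. Values without this array are given beside most of the lists described and many of the genes whose bound it decides. Its part in the results was measured only by leaving it out.

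Slide and group overlapped. The 20 arrays lay on 5 slides scanned on 1 day. Only slide 2 held both p38WT groups (1 unirradiated and 3 irradiated arrays), and only slide 4 held both p38DKI groups (3 unirradiated and 1 irradiated). A comparison within slides thus rests on these 8 arrays. Its only unirradiated p38WT array is the fifth, and its only irradiated p38DKI array is the first. The 75th percentile used for scaling also moved with the group, with median intensities of 95 and 77.2 in p38WT without and with irradiation and 63.3 and 98.5 in p38DKI.

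The response to irradiation was large in both genotypes and mostly ran the same way. In p38WT, 5076 genes (27.1%) were called, 2814 higher (15%) and 2262 lower (12.1%). In p38DKI, 5867 genes (31.3%) were called, 2261 higher (12.1%) and 3606 lower (19.3%). Irradiated and unirradiated arrays did not overlap for 24.3% of genes in p38WT, 19.7% in p38DKI and 9.54% in both in 1 direction. Scaling moved these splits: scaled to the array median, 3791 were higher and 1280 lower in p38DKI, and with no scaling 840 were higher and 3379 lower in p38WT and 3819 higher and 759 lower in p38DKI. Scaled by the 75th percentile of the probes seen on every array, 2124 were higher and 3756 lower in p38WT, and in the deposited values 3004 were higher and 2217 lower in p38DKI. In both genotypes and in 1 direction, 2953 genes (15.8%) were called, 1453 higher and 1500 lower. They were 58.2% of the p38WT calls and 50.3% of the p38DKI calls. Of the p38WT calls, 92.8% had the same sign in p38DKI. Over all genes the 2 sets of effects had a Pearson r of 0.716 and a Spearman rho of 0.614, which describe genes and not replicates. The r was 0.773 without the second p38DKI irradiated array.

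**Figure D1:**
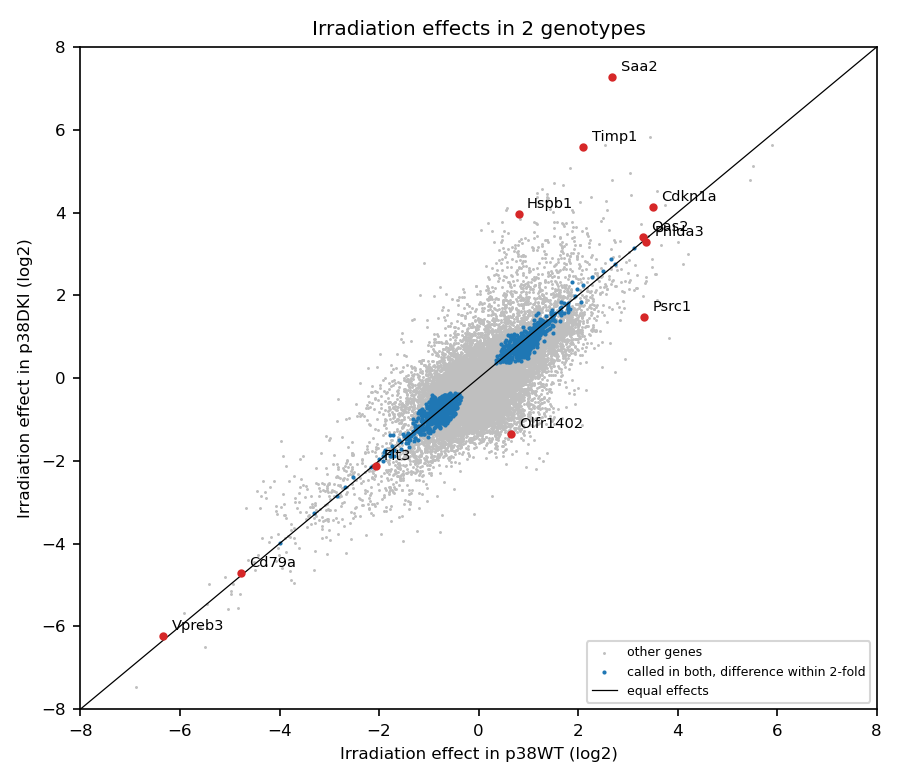
Irradiation effect (irradiated minus unirradiated, log2) of each of the 18724 genes in p38WT on the x axis and p38DKI on the y axis. Blue points are the 1244 genes called in both with a difference bounded within 2-fold, grey points are all others, red points are genes named in the text, and the line marks equal effects.

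The difference itself was called for 1 gene (0.00534%), Olfr1402, which codes for an olfactory receptor. At an unadjusted p under 0.05 there were 2612 genes (14%), 2000 lower and 612 higher in p38DKI. At an adjusted p under 0.1 there were 65, 62 of them lower in p38DKI. The interval of the single gene, not adjusted over genes, lay wholly below -1 for 54 genes and wholly above 1 for 6. The median difference of all genes was -0.22, so gene lists are set against that value. Under other ways of scaling the arrays this median was 0.21 (array median), -0.11 (75th percentile of the probes seen on every array), -0.06 (quantile normalization) and 0.83 (no scaling).

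Preserved genes numbered 1244 (6.64%), 532 rises and 712 falls, and 256 of them changed at least 2-fold in both genotypes. A further 1709 genes were called in both in 1 direction without a difference bounded within 2-fold. Within 4-fold, where 77% of all genes were bounded, 2683 of the 2953 shared genes (90.9%) were bounded, and for 2807 (95.1%) the difference itself was under 1 log2 unit. The direction held better across scalings than the bound. Of the 2953 shared genes, 1859 were called in both in the same direction under all of 4 scalings, and 1144 also without scaling. Of the 1244 preserved genes, 151 were preserved under the same 4 scalings and 0 also without scaling. Scaled to the array median, 790 genes were preserved, 180 of them among the 1244. Leaving out the second p38DKI irradiated array gave 1904 preserved genes, 1035 of them among the 1244. For 3 of the 1244 at least 1 group had no array well above background, so their differences are not bounded by these data.

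Precision depended on signal. The median margin of an interval, the distance from the difference to either end, was 0.91 log2 units, with quartiles of 0.66 and 1.23. When genes were ranked by level into 4 equal parts, the lowest had a median margin of 1.28, with 2.5% of genes bounded within 2-fold. In the highest the margin was 0.72 and 41.1% were bounded. The median difference also moved with level, at -0.48 in the lowest part, -0.22 and -0.02 in the middle ones and -0.19 in the highest. For large responses a bound of 2-fold is strict, so a second bound was used, set after the values were seen: the whole interval within 50% of the mean response of both genotypes. It held for 149 shared genes (0.796%). Among the 31 shared falls of 4 log2 units or more it held for 28. Among the shared rises of 0.5 to 1 log2 units it held for 0, although 332 of those (84.5%) were bounded within 2-fold.

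Most p53 target genes rose. Of 46 measured members, 28 rose in p38WT and 25 in p38DKI, with 23 rising in both and 3 falling in both. In all genes 7.76% rose and 8.01% fell in both. Their median effect was 0.94 in p38WT and 0.88 in p38DKI, and the median difference was -0.09, 0.13 above that of all genes (-0.02 relative to all genes under quantile normalization). The median difference was -0.01 without the second p38DKI irradiated array. No member had a called difference. Preserved members numbered 6, or 15 without that array, against 6.64% of all genes, and 2 were preserved under all of 4 scalings. At an unadjusted p under 0.05, 6 members were lower and 4 higher in p38DKI, against 10.7% and 3.27% of all genes.

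Phlda3, a p53-induced inhibitor of Akt signalling, was preserved (mm9, probe at chr1:137665642). Its levels in p38WT were 1.81, 1.48, 1.91, 1.22 and 1.73 without irradiation and 5.01, 4.89, 5.14, 5.21 and 4.73 after it. In p38DKI they were 2.12, 1.38, 1.09, 1.66 and 2.05 without and 5.53, 3.51, 5.21, 5.2 and 5.22 after. Irradiated and unirradiated arrays did not overlap in either genotype, and the second p38DKI irradiated array was the lowest of its group. The effects were 3.36 ± 0.27 and 3.28 ± 0.27 (SE), with a difference of -0.09 (interval -0.86 to 0.69). Without that array the difference was 0.27 (-0.28 to 0.82).

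Mdm2, the ubiquitin ligase that limits p53, had the narrower interval. It lay between 2.92 and 3.22 in unirradiated p38WT and between 4.07 and 4.68 after irradiation. In p38DKI it lay between 2.71 and 3.17 and then between 3.58 and 4.47, with the second array lowest. The effects were 1.33 and 1.29, and the difference was -0.04 (-0.50 to 0.42). Of the genes named here from the scaling comparison, Mdm2 was preserved under all 4 scalings, with differences from -0.04 to 0.39. Within slides the difference was 0.16 (-0.72 to 1.04).

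Other p53 targets were bounded less well. Cdkn1a, the p21 cell cycle inhibitor, rose by 3.50 in p38WT and 4.14 in p38DKI (difference 0.63, -0.60 to 1.86). Its second, dimmer probe gave 3.05 and 1.91, with a difference of -1.14, so the probes disagreed on direction. Ccng1, a cyclin G gene, rose by 2.66 and 2.28 (-0.39, -1.05 to 0.27). Gdf15, a stress cytokine, rose by 3.75 in p38WT and at least 13.5-fold in p38DKI, where the unirradiated group was not well above background. Bax, the pro-apoptotic pore protein, had 1 p38WT irradiated array at -3.43 against 4.70 to 5.13 on the other 4. Its difference was 1.46 (-1.25 to 4.18) with that array and -0.21 without it.

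Psrc1, a p53-induced microtubule-binding protein, had the smallest p of the list. Its levels in irradiated p38WT were 1.15, 0.86, 1.24, 0.81 and 0.72, from -2.32, -1.95, -2.35, -2.66 and -2.58 without irradiation. In p38DKI they were -0.05, -2.0, -0.39, 0.12 and 0.42 after irradiation, from -1.49, -1.45, -2.14, -2.44 and -1.73. All 5 irradiated p38DKI arrays were below all 5 irradiated p38WT arrays. The rise was 3.33 in p38WT and 1.47 in p38DKI, both called. The difference was -1.85 ± 0.44 (SE; interval -2.76 to -0.95) with a limma p of 0.000245 and an adjusted p of 0.0956, so it was not called. It was -1.45 without the second p38DKI irradiated array and -1.60 (-3.29 to 0.08) within slides.

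**Figure D2:**
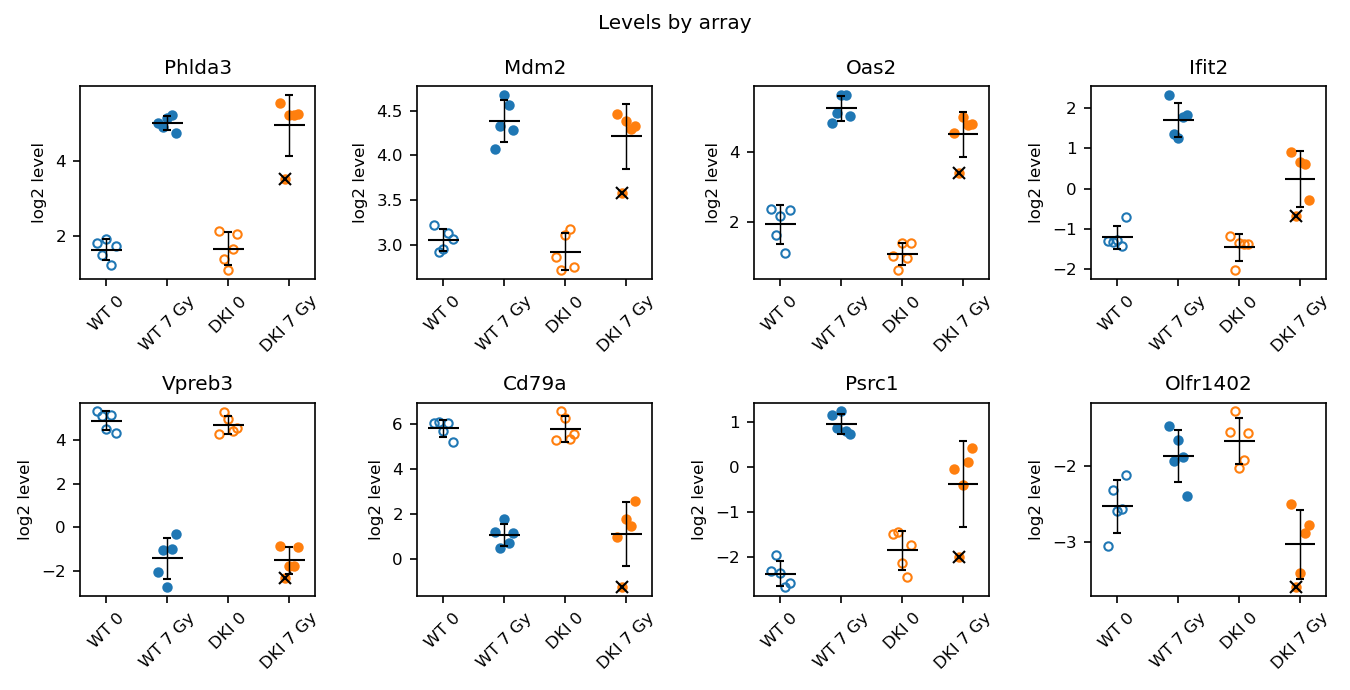
Log2 level relative to the 75th percentile of the array for 8 genes, 1 point per array, in p38WT (blue) and p38DKI (orange) without (open) and with (filled) 7 Gy; lines are means with SD (n = 5). The crossed point is the second p38DKI irradiated array, which is the lowest of its group in all 8 panels.

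Interferon-stimulated genes formed a shared rise. Of 50 measured members, 38 rose in p38WT and 37 in p38DKI, 34 rose in both, and 3 fell in p38DKI. The same 34 genes rose in both under all of 4 scalings. The median effect was 1.37 in each genotype, and the median difference was -0.28, or -0.07 relative to all genes (0.40 with normexp background correction). The median difference was -0.16 without the second p38DKI irradiated array. Preserved members numbered 17 of 50 (34%), against 6.64% of all genes, but 3 were preserved under all of 4 scalings. With differences taken relative to the median of all genes, 13 were bounded and 12 of these under all 4. Within 50% of the response lay 12. No difference was called; 6 members were lower and 0 higher in p38DKI at an unadjusted p under 0.05, against 10.7% and 3.27% of all genes.

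Oas2, which makes 2-5A to activate RNase L, measured 2.38, 1.64, 2.18, 1.11 and 2.33 in unirradiated p38WT and 4.82, 5.10, 5.61, 5.63 and 5.03 after irradiation. In p38DKI it measured 1.02, 0.62, 1.40, 0.98 and 1.39, then 4.54, 3.39, 4.98, 4.75 and 4.80. Irradiated and unirradiated arrays did not overlap in either genotype. The effects were 3.31 and 3.41, with a difference of 0.10 (-0.76 to 0.96). Leaving out the second p38DKI irradiated array gave 0.38 (-0.40 to 1.15), outside the 2-fold bound. Oas1a, of the same enzyme family, rose by 2.75 in each (0.00, -0.83 to 0.83), and its second probe gave 2.59 in each. Its difference without that array was 0.32 (-0.36 to 1.0), just outside the bound.

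Rtp4, an interferon-induced regulator of antiviral signalling, rose by 3.13 and 3.15 (0.02, -0.67 to 0.71). Mx1, an antiviral GTPase, rose by 2.51 and 2.59 (0.08, -0.80 to 0.97). Ifih1, the RNA sensor MDA5, rose by 1.87 and 2.32 (0.44, -0.02 to 0.91). Leaving out that array gave differences of 0.30 (-0.24 to 0.85) for Rtp4, 0.46 (-0.22 to 1.14) for Mx1 and 0.45 (-0.03 to 0.92) for Ifih1, so Mx1 left the bound. For these 3 the irradiated and unirradiated arrays did not overlap in either genotype. Slfn4, a Schlafen family gene, rose by 5.90 and 5.62 (-0.27, -1.60 to 1.05), which is outside the 2-fold bound but within 50% of the response. Ifit3, an antiviral effector, rose by 5.45 and 4.78 (-0.67, -1.56 to 0.21).

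Ifit2, of the same family, had the smallest p of the list. It rose from -1.31, -1.33, -1.28, -1.43 and -0.70 to 2.32, 1.36, 1.25, 1.76 and 1.83 in p38WT. In p38DKI it rose from -1.18, -2.02, -1.35, -1.38 and -1.37 to 0.90, -0.69, 0.67, 0.62 and -0.28. All irradiated p38DKI arrays were below all irradiated p38WT arrays. The difference was -1.21 (-2.12 to -0.30, limma adjusted p = 0.251), -0.98 without the second p38DKI irradiated array and -0.08 (-1.75 to 1.60) within slides. Within slides the only unirradiated p38WT array was the fifth (-0.70) and the only irradiated p38DKI array the first (0.90). Each was the highest of its group.

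B cell genes fell together and far. Of 28 measured members, 26 fell in p38WT, 27 in p38DKI and 26 in both, and the same 26 did so under all of 4 scalings. The median effect was -3.98 in p38WT and -3.91 in p38DKI, with a median difference of 0.07. For 3 members an irradiated group had no array well above background, and the median difference of the others was 0.06. No member differed at an unadjusted p under 0.05. The 2-fold bound held for 1 of the 26 (Cd22, difference 0.10, -0.77 to 0.97), and the bound of 50% of the response for 20. Without the second p38DKI irradiated array, where B cell genes were lowest, the median difference was 0.46.

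Vpreb3, a member of the B cell list, fell from 5.35, 5.12, 4.52, 5.19 and 4.34 to -2.06, -1.06, -2.74, -0.99 and -0.33 in p38WT. In p38DKI it fell from 4.31, 5.31, 4.98, 4.42 and 4.59 to -0.84, -2.32, -1.77, -1.77 and -0.91. The irradiated p38DKI arrays lay within the range of the irradiated p38WT arrays. The effects were -6.34 and -6.24, and the difference was 0.09 (-1.03 to 1.22). Cd79a, the immunoglobulin alpha chain of the B cell receptor, fell by 4.77 and 4.71 (0.06, -1.38 to 1.5). Its second probe gave falls of 4.52 and 4.61. The difference of Cd79a was 0.65 without the second p38DKI irradiated array.

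Genes of MHC class II, which B cells and other antigen-presenting cells express, fell in both genotypes for 10 of 11 members. Their median fall was 3.61 in p38WT and 2.84 in p38DKI, and none was bounded within 2-fold. The median difference of the members was 0.24, or 0.61 without the second p38DKI irradiated array. H2-Ab1, a class II beta chain, fell by 3.93 and 2.80 (1.13, -0.17 to 2.43; limma adjusted p = 0.415). Its second probe gave a difference of 0.82. Without the second p38DKI irradiated array the difference of H2-Ab1 was 1.54 at an unadjusted p of 0.0121. H2-Oa went the other way, with effects of -3.80 and -4.66 (-0.87, -1.96 to 0.23), and a difference of -0.41 without that array.

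**Figure D3:**
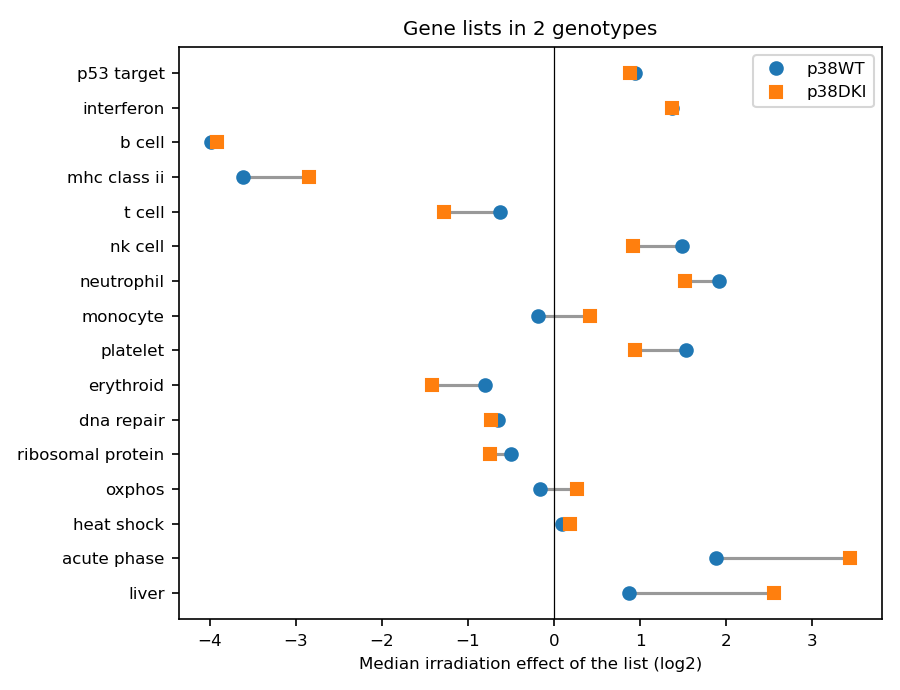
Median irradiation effect (log2, irradiated minus unirradiated) over the measured genes of 16 lists in p38WT (circles) and p38DKI (squares); grey lines join them. B cell genes lie near -4 in both genotypes, and the liver and acute phase lists lie apart.

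Among the preserved genes outside those lists, the 8 largest falls included Bend5, a BEN domain gene, and Flt3, a receptor of haematopoietic progenitors and dendritic cells. Bend5 fell by at least 11.8-fold in p38WT, where the irradiated group was not well above background, and by 3.98 in p38DKI, so its difference is not bounded by these data. Flt3 fell by 2.07 and 2.13 (-0.06, -0.95 to 0.84). Mzb1, a chaperone of plasma and marginal zone B cells, fell by 2.16 in each (interval -0.98 to 0.97). Defb40 fell at least 3.72-fold and at least 5.13-fold, with neither irradiated group well above background, and its difference is likewise not bounded. Fam169b and Filip1l fell by 2.69 and 2.53 in p38WT and by 2.63 and 2.38 in p38DKI. The second probe of Filip1l gave -0.18 and -1.08, a difference of -0.91. Without the second p38DKI irradiated array the differences of Flt3 (0.23, -0.58 to 1.04), Mzb1 (0.34, -0.50 to 1.18), Fam169b (-0.29, -1.04 to 0.47) and Filip1l (0.47, -0.20 to 1.15) were outside the 2-fold bound. Among the rises, Agrn, the matrix proteoglycan agrin, rose by 2.65 and 2.88, but its second probe gave -0.21 and -1.03. Il18bp, which binds interleukin 18, rose by 2.29 and 2.45.

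Natural killer, T cell, neutrophil and platelet lists had lower median effects in p38DKI, by amounts that depended on 1 array. Among all genes 15% were called higher and 12.1% lower in p38WT, 12.1% higher and 19.3% lower in p38DKI, and 7.76% higher in both. Of 23 natural killer genes, 19 rose in p38WT, 7 in p38DKI and 7 in both. The median effects were 1.48 and 0.92, a median difference of -0.40 relative to all genes. Without the second p38DKI irradiated array, 19 rose in both and the relative difference was -0.06. Of 33 platelet genes, 30 rose in p38WT and 17 in p38DKI, with 18 called in both in 1 direction. Without that array 31 were, and the relative difference moved from -0.36 to -0.12. T cell genes, 10 of 31 lower in p38WT and 22 in p38DKI, moved from -0.38 to -0.05. Neutrophil genes, 24 of 32 higher in p38WT and 21 in p38DKI, moved from -0.30 to -0.16. With normexp background correction the sign of all 4 lists turned, to 0.29 for natural killer, 0.66 for platelet, 0.40 for T cell and 0.41 for neutrophil genes. Within slides the sign turned for platelet (0.83) and neutrophil genes (0.72). The only unirradiated p38WT array there, the fifth, had the highest neutrophil mean of its group (2.98). The only irradiated p38DKI array there, the first, had the highest platelet mean of its group (6.16).

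Single members show the same array. Ccl5, a chemokine of natural killer and T cells, measured 8.44, 5.40, 7.82, 8.11 and 8.47 in irradiated p38DKI and 8.18, 8.47, 8.30, 8.31 and 8.55 in irradiated p38WT. The second array was more than 2 log2 units below the others. The difference was -1.19 (-2.35 to -0.03) with it and -0.63 (-1.41 to 0.15) without it. Gfi1b, a transcription factor of the megakaryocyte and red cell lines, had differences of -1.11 and -0.68. Cd5, a T cell receptor regulator, had -1.09 and -0.63. Csf3r, the granulocyte colony-stimulating factor receptor, rose by 1.09 in p38WT and measured 0.16 in p38DKI (-0.93, -1.60 to -0.27), and -0.78 (-1.43 to -0.14) without that array.

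Erythroid genes had median effects of -0.81 in p38WT and -1.41 in p38DKI. Of 42 members, 20 fell in p38WT and 29 in p38DKI, with 19 falling and 4 rising in both. At an unadjusted p under 0.05, 12 members had a lower difference and 1 a higher one, against 10.7% and 3.27% of all genes, and no difference was called. The median difference was -0.69 relative to all genes, -0.44 without the second p38DKI irradiated array, -0.49 within slides and 0.25 with normexp. Epb42, a red cell membrane protein, fell by 1.76 and 3.45 (-1.69, -2.96 to -0.43), and its second probe gave -2.36. Its difference without that array was -1.22 (-2.28 to -0.15).

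Ribosomal protein genes supplied 30 preserved falls of 74 members (6.64% of all genes were preserved). They fell by a median of 0.50 in p38WT and 0.75 in p38DKI, and a median margin of 0.61 makes them the most tightly bounded of the lists. Their median difference was -0.29, or -0.06 without the second p38DKI irradiated array. The calls depended on scaling: 33 were called in both, but 8 in all of 4 scalings, where 7 were preserved. Of 40 DNA repair genes, 10 were preserved and 16 fell in both (8.01% of all genes did), with a median difference of 0.03. Under all of 4 scalings 5 were called in both and 1 was preserved. Parp1, which marks DNA breaks, fell by 2.92 and 2.08 (difference 0.84, 0.08 to 1.59). Without the second p38DKI irradiated array the difference was 0.63 (-0.08 to 1.33), and the difference within slides was 0.09 (-1.32 to 1.49). Oxidative phosphorylation genes had a median difference of 0.51 relative to all genes, 0.17 without the second p38DKI irradiated array and -0.03 within slides.

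Of 33 measured genes of the p38 cascade, 2 rose and 2 fell in both genotypes, against 7.76% and 8.01% of all genes. At an unadjusted p under 0.05 there were 6 lower and 2 higher differences, against 10.7% and 3.27%. Mapk14, which codes for p38 alpha, rose by 0.89 in p38WT and 0.80 in p38DKI (-0.09, -0.76 to 0.58). Its dimmer probe gave 0.72 and -0.32. Mapk11, which codes for p38 beta, fell by 1.59 and 1.35 (0.23, -0.56 to 1.02). The other p38 kinase genes, Mapk12 and Mapk13, were picked after their values were seen and differed in opposite directions. Mapk12 had effects of -1.81 in p38WT and -0.58 in p38DKI (1.22, 0.33 to 2.12), with a limma adjusted p of 0.24. Mapk13 had 1.93 and 0.76 (-1.17, -2.06 to -0.28), with a limma adjusted p of 0.256. Irradiation was called for both in p38WT only, and neither difference was called. These transcript levels do not check the labels, since the altered allele is not given.

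**Figure D4:**
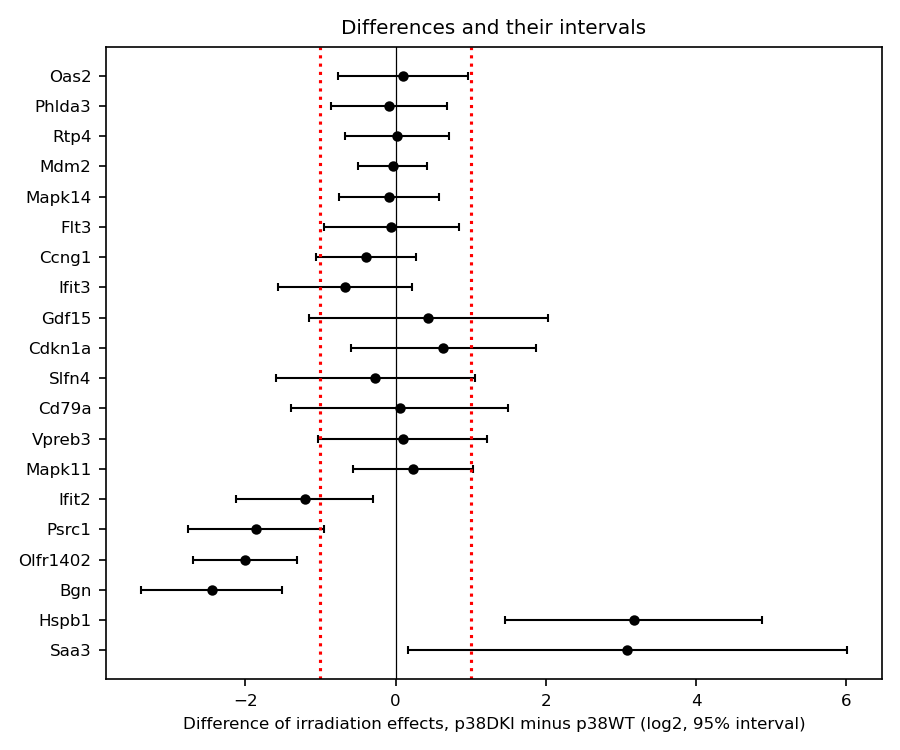
Difference of irradiation effects (p38DKI minus p38WT, log2) with its 95% interval for 20 genes; dotted lines mark a 2-fold difference. Oas2, Phlda3, Rtp4, Mdm2, Mapk14 and Flt3 lie within them with all arrays in the fit. Olfr1402 and Bgn lie wholly below, and Hspb1 lies wholly above.

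The largest differences were in genes that lay low or varied widely. Olfr1402 (mm9, probe at chr3:97214221) measured -3.04, -2.32, -2.60, -2.57 and -2.12 in unirradiated p38WT and -1.48, -1.94, -1.67, -1.89 and -2.39 after irradiation. In p38DKI it measured -1.57, -1.29, -2.04, -1.92 and -1.57, then -2.50, -3.58, -3.40, -2.89 and -2.77. It was thus higher after irradiation in p38WT with overlapping arrays and lower in p38DKI with none overlapping. The effects were 0.65 ± 0.24 and -1.35 ± 0.24 (SE), and the difference was -2.0 (-2.69 to -1.32; limma adjusted p = 0.0415). The call held under 6 of 20 other settings and 6 of 20 fits that left out 1 array. Without the second p38DKI irradiated array the limma adjusted p was 0.0531, and within slides the difference was -1.08 (-2.27 to 0.10). Within slides the only unirradiated p38WT array was the fifth (-2.12) and the only irradiated p38DKI array the first (-2.50). Each was the highest of its group.

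Irradiation was called in opposite directions for 25 genes (0.134%), all of them higher in p38WT and lower in p38DKI. With genes ranked by mean level over the 20 arrays into 4 equal parts, 10 of the 25 lay in the lowest, 13 in the next, 2 in the third and 0 in the highest. Vmn1r168, a vomeronasal receptor, had effects of 1.38 and -1.82. The transcript E330014E10Rik had 1.22 and -1.92, while its second probe gave -0.67 and -0.61. Scaled to the array median, 3 genes were called in opposite directions, and without the second p38DKI irradiated array 20 were.

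Hspb1, a small heat shock protein, measured 1.72, 0.55, 2.01, 1.27 and 3.10 without and 2.10, 2.91, 3.12, 1.22 and 3.32 with irradiation in p38WT. In p38DKI it measured 1.59, -0.18, -1.53, 0.18 and -0.35, then 3.89, 4.18, 3.01, 5.10 and 3.38. Arrays overlapped in p38WT and not in p38DKI. The difference was 3.17 (1.46 to 4.88, limma adjusted p = 0.133), 3.10 without the second p38DKI irradiated array and 4.84 (1.77 to 7.91) within slides. Within slides the only unirradiated p38WT array was the fifth, at a level of 3.10 the highest of its group.

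Stroma genes, many of which code for matrix proteins and their regulators, had a median difference of 0.78, or 1.0 relative to all genes. The relative value was 1.28 without the second p38DKI irradiated array. Of 20 measured members, 8 were higher and 1 lower in p38DKI at an unadjusted p under 0.05, against 3.27% and 10.7% of all genes, and none was called. Dcn, the proteoglycan decorin, differed by 3.30 (0.55 to 6.04), and Col3a1, a fibrillar collagen, by 2.67 (0.30 to 5.05); both were chosen after their values were seen. The list mean ran from 1.04 to 2.29 in irradiated p38DKI and from 0.04 to 1.43 in irradiated p38WT. For 4 members a group had no array well above background. Members that did not pass an unadjusted p under 0.05 went both ways. Thy1 (-0.89), Col6a2 (-0.79) and Kdr (-0.73) had lower differences, and Fn1 (1.95) and S100a4 (1.15) higher ones. The 1 member lower at an unadjusted p under 0.05 was Bgn, the matrix proteoglycan biglycan. It differed by -2.45 (-3.38 to -1.51, limma adjusted p = 0.0655). Unirradiated p38WT arrays held Bgn at -2.16 to -1.77 apart from 1 at -0.36, and unirradiated p38DKI arrays at -0.39 to 0.80. No array of either group shared a slide with the other, so slide and genotype cannot be told apart there. Within slides the difference of Bgn was -1.29 (-2.67 to 0.09). The only unirradiated p38WT array in that comparison is the fifth, the 1 at -0.36.

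Acute phase and liver transcripts could not be bounded. The 13 measured acute phase genes had a median margin of 4.04 and a median difference of 1.90, which was -0.01 without the second p38DKI irradiated array. Saa2, a serum amyloid, measured 9.31 on that array and between -0.26 and 4.32 on the others of the group. The 46 liver genes had a median margin of 4.86.

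Genes were also chosen by their irradiation effect in p38DN mice, whose arrays share the probe filter and the estimate of the spread with the other genotypes. Irradiation changed 3249 genes (17.4%) at least 2-fold in p38DN. Of the 2067 that rose there, 1929 were higher in p38WT and 1896 in p38DKI. Called higher in both were 828 (40.1%), against 7.76% of all genes. The 2067 had median effects of 1.09 in p38WT and 0.84 in p38DKI. Their median difference was -0.25, against -0.22 for all genes. Of the 1182 that fell, 983 were lower in p38WT and 1061 in p38DKI. Called lower in both were 534 (45.2%), against 8.01% of all genes. The 1182 had median effects of -0.86 in p38WT and -1.36 in p38DKI, with a median difference of -0.36. No gene of either set had a called difference, where 1 of all 18724 genes had one. Bounded within 2-fold were 343 of the 2067 rises and 90 of the 1182 falls, against 26.4% of all genes.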

How the data were processed

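Blood RNA from 20 p38WT and p38DKI arrays was compared, with 10 p38DN arrays in the same fit. The authors deposited Agilent scanner files whose processed signal is an intensity, background-subtracted by Feature Extraction 12.0.2 per the file headers, and a table of log2 values, used as an alternative. Intensities were taken to log2, spots marked as outliers were left out, repeated spots averaged, and the 75th percentile of each array subtracted. Probes well above background on at least 4 of 5 arrays of a group with values on at least 20 arrays were kept (23614). The brightest probe stood for a gene. Group means were fitted with limma 3.58.1 in R 4.3.3 (24 residual degrees of freedom). The members and gene lists (29) were chosen with earlier results of these data known. Named genes were the largest preserved changes, opposite calls, the 2 smallest difference p-values per list, and 13 fixed genes; 1 named gene is not reported here. The number of arrays limits precision. Probe positions are mm9; promoters are GRCm38.p6. Replicate numbers were not taken to pair arrays (deviation correlations -0.31 to 0.40, 5 over 0.1). These correlations alone cannot show whether the numbers pair arrays. The test was checked on simulated data with independent noise, without slide effects or an array set apart, so the check does not cover those.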

Additional observations from a re-analysis of the deposited data

Results flagged for a closer look

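In 439 groups of 5 arrays (named genes and list means), 50 (11.4%) held an array far from the other 4 by Dixon's ratio (0.71), where chance gives about 1 in 20. The second p38DKI irradiated array accounted for 32. The values are log2 levels on the array that stood apart.

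On the second p38DKI irradiated array the low values were Oas2 3.39, Phlda3 3.51, Rtp4 4.99, Filip1l -1.49, Flt3 -4.05, H2-Oa -2.87, Cd5 -0.59, Ccl5 5.40, Styk1 -4.23, Siglecf -1.71, Coro1a 4.66, Arhgdib 4.88, Rpl39 6.42, Ccng1 1.22, Bax 3.65 and Mdm2 3.58. The high values were Fam169b -0.79, Parp1 -0.46 and Mt1 9.02. List means that were low there were p53 targets 1.29, interferon 2.21, B cell -2.72, T cell -0.29, natural killer 0.80, dendritic -0.81, basophil and eosinophil -1.01, general blood 4.79, cell cycle -1.67, apoptosis regulators 0.99, inflammatory cytokines -1.40, p38 cascade 0.53 and skeletal muscle -2.81. The liver marker score was 10.2 log2 units above the median on the same array. Its part in these values was not tested beyond leaving the array out.

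On the fifth p38WT unirradiated array Ifit2 was high at -0.70, Ccl2 at 3.81, Bgn at -0.36, Timp1 at 1.09 and Cdkn1a at -0.0668. There the stroma list was high at 1.39 and the cell cycle list low at 0.0155. The difference of Timp1 was 2.21 without this array and 3.48 with it, and no unirradiated p38DKI array held Timp1 well above background. On the second p38WT irradiated array the heart list was high at 2.82, Oas1a low at 5.15 and Stfa3 low at -0.58. Other arrays gave single values: Fam169b 0.77 (p38WT unirradiated, replicate 4), Tap1 -0.88 and Lat 2.29 (p38DKI unirradiated, replicate 3), Ifit2 -2.02 (p38DKI unirradiated, replicate 2), Ndufc2 2.34 and Timp1 -4.83 (p38WT irradiated, replicate 4), Bax -3.43 and the glucocorticoid list 3.15 (p38WT irradiated, replicate 3).

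The irradiation effect of Olfr1402 differed between genotypes by -2.0 (limma adjusted p = 0.0415), with opposite signs in p38WT and p38DKI.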

How the results depend on the processing

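The count of called differences was 1 and stayed within 0 and 4 under most settings. It was 0 with only the 20 arrays in the fit, scaled to the array median, with the 75th percentile of the probes seen on every array, with quantile normalization, with normexp, with no filter on dim probes, with limma trend, without the array or the 2 p38DKI arrays highest in liver transcripts and without the 2 p38WT arrays highest in heart transcripts. It was 4 with no scaling and 4 when the level of liver markers entered as covariate. It was 62 with array weights and 75 with slide as a random block (block correlation -0.05). Leaving out each array in turn gave 0 to 70 called differences, 70 without the fifth p38DKI irradiated array, 40 without the fifth p38WT unirradiated array, 10 without the fifth p38WT irradiated array, 5 without the fourth p38DKI unirradiated array and 2 without the first p38DKI irradiated array. Within slides it was 1, Ccl2 (difference 7.47, limma adjusted p = 0.0121) and not Olfr1402, and Timp1 stood at 8.66 (adjusted p = 0.0763). With all slides together Ccl2 differed by 2.70 and Timp1 by 3.48. The only unirradiated p38WT array on the slide with both p38WT groups is the fifth, at 3.81 for Ccl2 and 1.09 for Timp1, above the other 4. With the deposited values the 1 called gene was Lactb. Preserved genes (1244) numbered 790 with the array median, 121 with no scaling, 220 with normexp, 0 within slides, 3067 with array weights, 1904 without the p38DKI array highest in liver transcripts, and 978 to 1904 when 1 array was left out. Calls in p38WT were 1334 with normexp and 141 within slides, and in p38DKI 1373 and 635; leaving out 1 array gave 4082 to 6071 and 4666 to 6060. Within slides the median margin of the intervals was 1.70, since 8 arrays remain informative. At an unadjusted p under 0.05 the settings above gave 278 (within slides) to 5938 (no scaling) genes. Except where stated, the cause of these changes was not tested.

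With the replicate number as a block the count of called differences was 0 and of preserved genes 1230. The numbers were not taken to pair the arrays.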
